A study of Mus musculus with 27 samples.

Results

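The glucocorticoid response genes are 8 rows of a table of 23279 mouse genes, taken by name. They are Nr3c1, which encodes the glucocorticoid receptor, and 7 genes that glucocorticoids are known to raise in many tissues, Tsc22d3, Fkbp5, Per1, Sgk1, Klf9, Mt1 and Mt2. All 8 passed the filter on low values in every comparison. RNA was sequenced from 9 groups with 3 libraries each. ES–FLB and ES–HLB were forelimb-type and hindlimb-type mesenchyme made from 1 mouse embryonic stem (ES) cell line, EB5 Hand2::GFP +/-, which carries a green fluorescent reporter in 1 copy of Hand2, a gene of limb bud mesenchyme. Aggregates of these cells were cultured to day 9, trypsinized and sorted by FACS for the reporter. ES–FLBs received retinoic acid and ES–HLBs a retinoic acid antagonist during culture, and both received BMP4, Matrigel, a BMP inhibitor and Wnt3. By the methods of the study the medium of both also held hydrocortisone, a glucocorticoid, over the last days of the culture, up to day 9. The 7 embryonic groups were tissues of Slc:ICR mice, dissected and pooled from 3 embryos with no sorting named, namely early forelimb buds (early FLB) and hindlimb buds (early HLB), labelled E10.0, and and, all from E10.5, forelimb buds, hindlimb buds, tail bud (TB), heart (Ca) and branchial arch (BA). The legend of the study instead gives the early FLBs an earlier stage than the early HLBs. By that legend limb type and stage cannot be told apart between the early FLBs and the early HLBs. Replicate 2 of the E10.5 HLBs was left out because it holds no values on several chromosomes, which left 26 libraries.

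Glucocorticoids act through a receptor that waits in the cytoplasm in a complex with the Hsp90 chaperone. Bound hormone releases the receptor to the nucleus, where a pair of receptors sits on a palindromic DNA element and raises or lowers nearby genes. Enzymes in the cell convert the hormone, Hsd11b2 to an inactive form and Hsd11b1 back to the active form. In the embryo glucocorticoids are best known for maturing lung and liver, and in culture hydrocortisone is a common additive to serum-free media. No ES–LB culture without hydrocortisone was analysed here, so that the hormone, the culture as a whole, the trypsin and sorting, and the strain cannot be told apart in any comparison of ES–LBs with embryonic tissue.

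Values are read counts scaled to a sum of 1000000 per library (CPM) and then between libraries, and depth was 5543754 to 22142304 reads per library, at which 3 reads are worth 0.135 to 0.541 CPM. Every member lay above that floor in every library. The early limb bud libraries were the deepest, at 19642246 to 22142304 reads, against at most 8541932 in any other library. This difference between libraries cannot be told apart from stage or culture in comparisons with the early limb buds. The limb mesenchyme markers Hand2 (156 CPM in ES–FLBs and 236 in ES–HLBs) and Prrx1 (460 and 645) were present in both ES–LB groups, as in the embryonic limb buds, and 7 heart muscle markers summed to 18353 to 21903 CPM in Ca against at most 96.2 CPM in any other library. Endothelial and erythroid markers were lower in ES–LBs than in the early limb buds for 7 of 7 and 7 of 7 genes tested, in both limb types. Surface epithelium markers were lower for 6 and higher for 1 of 8 in ES–FLBs, and lower for 5 and higher for 2 of 8 in ES–HLBs. Macrophage markers were below the filter in the forelimb comparison and lower for 2 of 2 tested in the hindlimb, heart muscle markers lower for 1 of 3 and higher for 1 of 2, and neural crest markers split 1 to 1 of 2 and 2 higher to 1 lower of 3. Pluripotency markers were higher for 6 of 6 in both. Endoderm and hepatic-type markers were higher for 8 of 9 genes tested in ES–FLBs and 7 of 8 in ES–HLBs. In bulk samples fewer cells of a type and less RNA per cell cannot be told apart. Nothing in the labels says that replicates came from separate cultures or litters, and p-values measure the spread between these libraries.

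Against the early limb buds, the receptor gene and 5 of the 7 response genes (Per1, Sgk1, Klf9, Mt1 and Mt2) were higher in both kinds of ES–LBs, Fkbp5 was lower in both, and Tsc22d3 moved little and in opposite directions. In ES–FLBs 7 members were higher and 1 lower, where 82.1% of 13113 genes tested were called in either direction, 41.1% higher and 41% lower (adjusted p below 0.05, limma with Benjamini-Hochberg adjustment). In ES–HLBs 6 were higher and 2 lower, against a background of 78.6% of 13178 genes, 39.6% higher and 38.9% lower. Against the E10.5 limb buds, 5 members were higher and 2 lower in ES–FLBs, where 71.7% of 13174 genes were called (35.4% higher, 36.3% lower), and 6 were higher and 2 lower in ES–HLBs, where 71.9% of 12912 were called (37.2% higher, 34.6% lower). With so much of the transcriptome called, the totals of members called in either direction say little. Over 2-fold, 5 members were higher and 1 lower in each limb type, where 17.5% of all genes were higher and 12.1% lower in ES–FLBs, and 16.3% and 9.19% in ES–HLBs. The median log2 difference over the 8 members was 1.09 in ES–FLBs and 1.29 in ES–HLBs, beside 0.01 over all genes tested in each. The scaling sets the point of no change. CPM as deposited moved the median of all genes up by 0.22 and 0.16 and the share of calls that were higher from 50.1% to 62.4% in ES–FLBs and from 50.5% to 60.6% in ES–HLBs. The members' directions stayed as given under that scaling, and 1 call was lost, that of Tsc22d3 in ES–HLBs.

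**Figure D1:**
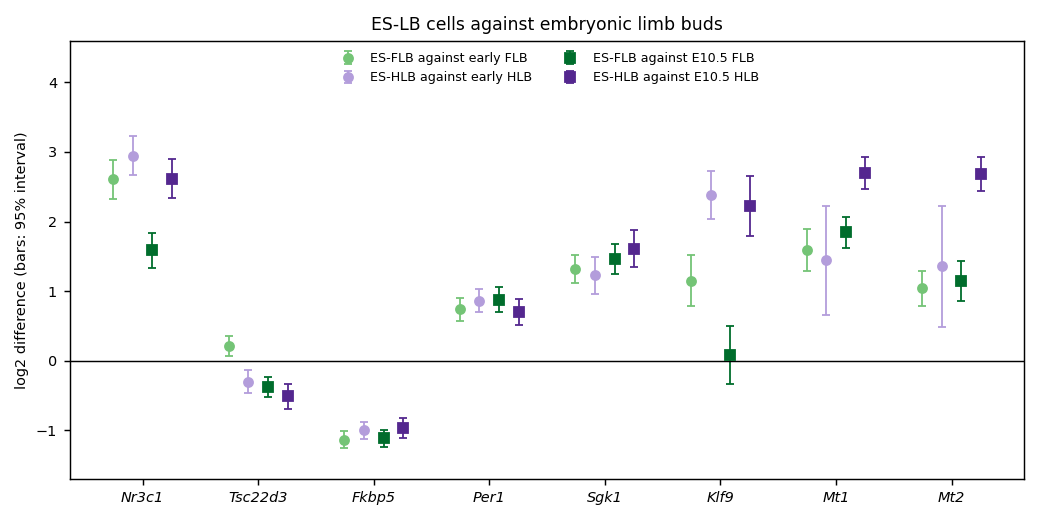
Log2 difference (y axis, with 95% interval) of each of the 8 genes (x axis) between ES–LBs and the embryonic limb buds of the same limb type, circles for the early and squares for the E10.5 limb buds. Fkbp5 lies near -1 in all 4 comparisons. Tsc22d3 lies on both sides of 0 against the early limb buds (0.21 and -0.30) and below 0 against the E10.5 limb buds (-0.38 and -0.51). Nr3c1, Per1, Sgk1, Mt1 and Mt2 lie above 0 in all 4, and Klf9 in 3 of 4 with its interval spanning 0 in ES–FLBs against E10.5 FLBs.

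Nr3c1, the receptor gene (chromosome 18, 39410545 to 39519421, minus strand, GRCm38), showed the largest difference of the 8 from the early limb buds. Its levels were 23.5, 23.9 and 26.7 CPM in the ES–FLB libraries and 4.09, 2.90 and 4.03 CPM in the early FLBs. In the ES–HLBs it stood at 33.2, 29.3 and 37.5 CPM, against 3.65, 4.53 and 3.49 CPM in the early HLBs. No library of one kind came near the other. The log2 difference was 2.60 ± 0.13 (SE, limma adjusted p = 2.63e-11) for the forelimb and 2.95 ± 0.13 (adjusted p = 7.98e-11) for the hindlimb, 6.08-fold and 7.71-fold on the scale of log2(CPM + 0.5), which understates changes of low genes. Against the older E10.5 limb buds, where the level was 7.90 ± 0.86 CPM (SD, n = 3) in FLBs and 4.70 and 5.29 CPM in the 2 HLB libraries, the difference was 1.59 ± 0.12 and 2.62 ± 0.14. The heart held 29.3, 33.1 and 32.6 CPM, a range that overlapped the ES–HLBs and lay above the ES–FLBs. Tail bud (13.1 CPM) lay between the heart and the limb buds, and branchial arch (7.54 CPM) overlapped the E10.5 FLBs.

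**Figure D2:**
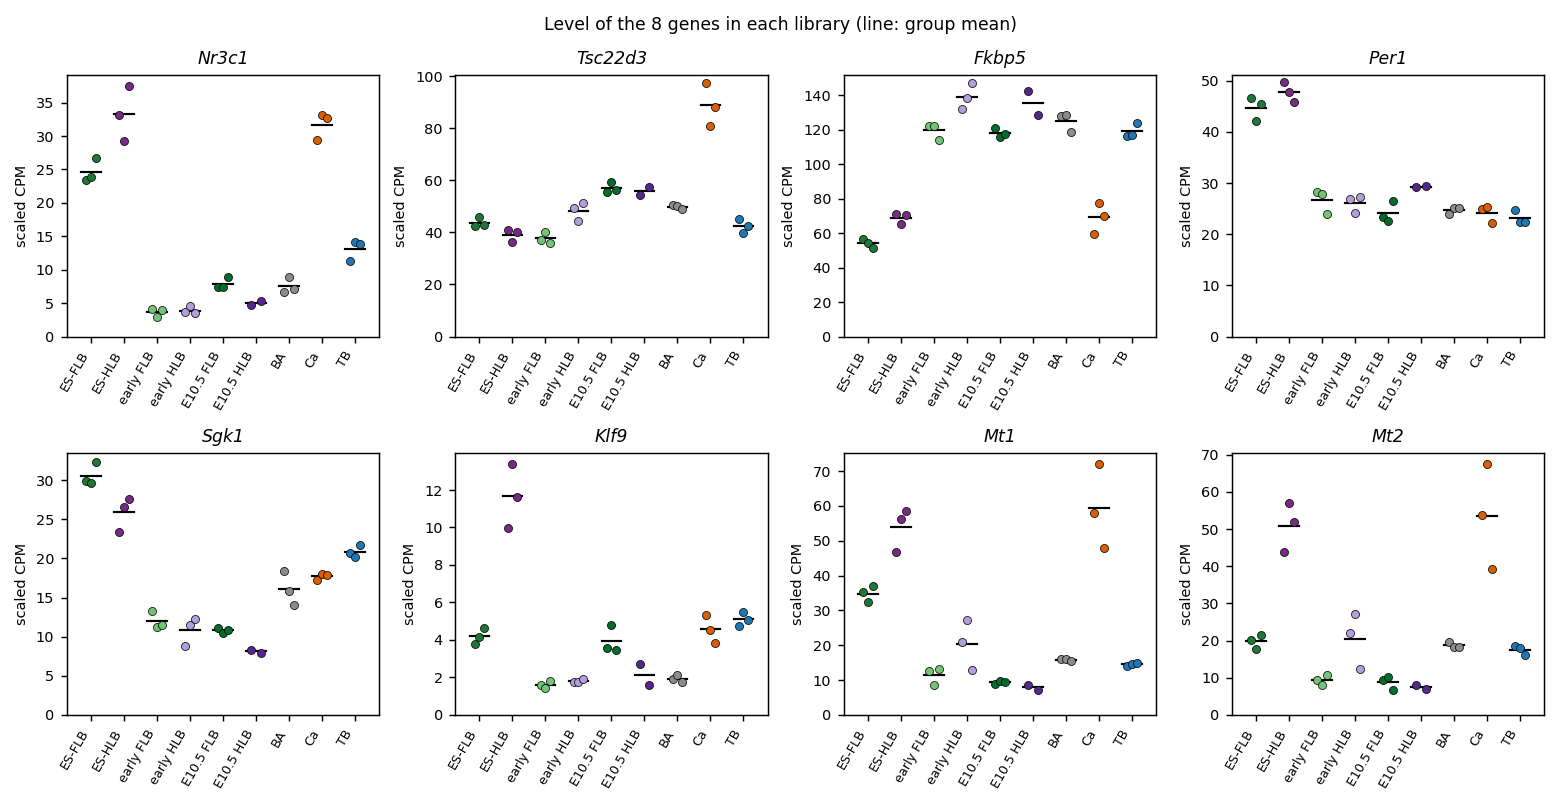
Scaled CPM (y axis, from 0) of each gene in each library (points) of the 9 groups (x axis), with the group mean as a line and 1 panel per gene. Per1 and Sgk1 are highest in the ES–LBs, Nr3c1, Mt1 and Mt2 are high in ES–HLBs and heart, Fkbp5 is low in ES–LBs and heart, and Tsc22d3 is highest in heart.

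Fkbp5 (chromosome 17, 28399094 to 28517527, minus strand) encodes a co-chaperone of Hsp90 that lowers the receptor's affinity for hormone, and is a widely used readout of receptor activity. It went the other way from most members. It was measured at 56.8, 54.4 and 51.3 CPM in ES–FLBs, against 122, 122 and 114 CPM in early FLBs. In ES–HLBs its levels were 71.3, 65.4 and 70.7 CPM, against 132, 139 and 147 CPM in early HLBs. The 6 ES–LB libraries lay between 51.3 and 71.3 CPM, and the 17 embryonic libraries other than heart between 114 and 147 CPM. The log2 difference was -1.14 ± 0.06 in ES–FLBs (limma adjusted p = 1.77e-11) and -1.01 ± 0.06 in ES–HLBs (adjusted p = 1.35e-09), or 2.2-fold and 2.01-fold lower. It was -1.12 ± 0.06 and -0.97 ± 0.07 against the E10.5 limb buds. Heart, with 59.7, 77.4 and 70.2 CPM, was the only embryonic tissue in the range of the ES–LBs.

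Tsc22d3 (chromosome X, 140539528 to 140600659, minus strand) encodes GILZ, a leucine zipper protein that carries part of the anti-inflammatory effect of glucocorticoids. Its levels were 42.3, 46.0 and 42.8 CPM in ES–FLBs and 37.1, 40.3 and 35.9 CPM in early FLBs. In ES–HLBs they were 40.7, 36.3 and 40.2 CPM, against 49.2, 44.5 and 51.2 CPM in early HLBs. The forelimb libraries did not overlap, with ES–FLBs above, and the hindlimb libraries did not overlap, with ES–HLBs below. The log2 difference was 0.21 ± 0.07 in the forelimb (limma adjusted p = 0.0108) and -0.30 ± 0.08 in the hindlimb (adjusted p = 0.00241). The contrasts themselves differed, by -0.51 ± 0.10 (hindlimb minus forelimb, adjusted p = 0.00108), a test that 22.7% of 13615 genes passed (12.8% higher, 9.96% lower) and of the members also Klf9. Without early FLB replicate 3 the forelimb call was lost (0.17, adjusted p = 0.0509), and with CPM as deposited the hindlimb call was lost (-0.14, adjusted p = 0.123). The 2 ES–LB groups did not differ past the threshold (-0.16 ± 0.08, adjusted p = 0.133), while early HLBs were higher than early FLBs by 0.35 ± 0.07 (adjusted p = 0.00575). Against the E10.5 limb buds Tsc22d3 was lower in both ES–LBs, by log2 differences of -0.38 ± 0.07 and -0.51 ± 0.09. Its highest level was in heart, 97.5, 80.7 and 88.1 CPM, above each of the other 23 libraries.

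Per1 (chromosome 11, 69095217 to 69109960, plus strand) encodes a repressor of the circadian clock and is raised quickly by glucocorticoids and by other stimuli. It stood at 46.6, 42.2 and 45.5 CPM in ES–FLBs and 49.8, 47.7 and 45.7 CPM in ES–HLBs. Early FLBs held 28.3, 27.9 and 23.9 CPM, and early HLBs 26.8, 24.1 and 27.2 CPM. The 20 embryonic libraries lay between 22.1 and 29.4 CPM, so that the ES–LBs were above all of them, and no embryonic tissue stood out. The log2 difference from the early limb buds was 0.74 ± 0.08 in ES–FLBs (limma adjusted p = 2.44e-07) and 0.86 ± 0.08 in ES–HLBs (adjusted p = 1.14e-07), and from the E10.5 limb buds it was 0.88 ± 0.09 and 0.70 ± 0.09. The 2 ES–LB groups did not differ past the threshold (0.09, 95% interval -0.05 to 0.24).

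Sgk1 (chromosome 10, 21882184 to 21999903, plus strand) encodes a kinase that regulates ion channels and is induced by glucocorticoids, mineralocorticoids and serum. Its levels were 29.9, 29.6 and 32.3 CPM in ES–FLBs and 23.4, 26.6 and 27.7 CPM in ES–HLBs, above all 20 embryonic libraries, which reached 21.7 CPM in tail bud and fell to 7.93 CPM in E10.5 HLBs. Early FLBs held 13.3, 11.2 and 11.5 CPM, and early HLBs 8.83, 11.4 and 12.3 CPM. The log2 difference from the early limb buds was 1.32 ± 0.09 (limma adjusted p = 1.49e-09) and 1.22 ± 0.12 (adjusted p = 4.43e-07), and from the E10.5 limb buds 1.46 ± 0.11 and 1.61 ± 0.13. Among embryonic tissues TB, Ca and BA were above the limb buds.

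The promoter sequences were searched for receptor elements because the members share their known regulator. RefSeq windows (GRCm38.p6) of 250 bases before to 50 bases after a start site were at hand for 7 of the 8 genes, 15 windows in all. The receptor's element was searched as GNACA and TGTNC with any 3 bases between them, which reads the same on both strands, and was found in 2 of the 15 windows, 1 of Sgk1 and 1 of Mt1, where 0.475% of 32851 windows of all genes held it. The stricter palindrome of AGAACA and TGTTCT with the same spacing, which holds the first, was in 3 of the 32851 windows, 1 of them the Sgk1 window. The bases before that Sgk1 start (chr10:21993640-21993889, plus strand, between annotated exons of Sgk1) are shown because they carry the full palindrome, with the match to the shorter form in capitals.
Sgk1: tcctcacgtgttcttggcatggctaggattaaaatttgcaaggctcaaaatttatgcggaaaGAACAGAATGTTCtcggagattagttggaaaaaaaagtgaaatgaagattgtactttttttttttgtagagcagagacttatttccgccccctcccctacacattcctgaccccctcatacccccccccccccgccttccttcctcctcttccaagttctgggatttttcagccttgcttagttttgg
No match was found in the windows of Fkbp5, Tsc22d3, Per1, Klf9 and Mt2 or in the other 5 of Sgk1, which says only that these letters are absent there. Elements of these genes in introns and distal enhancers were not searched.

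Klf9 (chromosome 19, 23141226 to 23168134, plus strand) encodes a zinc finger repressor that responds to glucocorticoids and thyroid hormone. Together with Mt2, it most separated the ES–LBs, by log2 differences of 1.37 ± 0.16 for Klf9 and 1.34 ± 0.09 for Mt2. Klf9 levels were 3.77, 4.16 and 4.63 CPM in ES–FLBs but 9.96, 13.4 and 11.6 CPM in ES–HLBs. Early FLBs held 1.58, 1.45 and 1.81 CPM, and early HLBs 1.78, 1.77 and 1.91 CPM. ES–HLBs lay above every other library, while ES–FLBs lay within the range of E10.5 FLBs, overlapped Ca and lay below TB. The log2 difference from the early limb buds was 1.15 ± 0.17 in the forelimb (limma adjusted p = 1.24e-05) and 2.38 ± 0.16 in the hindlimb (adjusted p = 5.4e-09), and these contrasts differed by 1.23 ± 0.23 (adjusted p = 0.000504). Against the E10.5 limb buds Klf9 was higher in ES–HLBs by 2.22 ± 0.21 (adjusted p = 1.83e-11). In ES–FLBs the difference from E10.5 FLBs was 0.08 (95% interval -0.34 to 0.49, adjusted p = 0.737).

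Mt1 (chromosome 8, 94179082 to 94180327) and Mt2 (chromosome 8, 94172664 to 94173568) encode metallothioneins, small proteins that bind zinc and copper, and are induced by metals and by glucocorticoids. Both lie on the plus strand, 5513 bases apart. Glucocorticoid induction of this pair is known to act through elements upstream of Mt2, and metal induction through short metal response elements next to each start. These elements were searched as TGCACNC or TGCGCNC on both strands, and at least 1 match was in 25.7% of all 32851 windows. The window of Mt2 held 4 matches and that of Mt1 3, where 0.517% of windows held 4 or more and 1.97% held 3 or more. Shown are the bases of each window before the annotated exons (Mt1, chr8:94178839-94179081; Mt2, chr8:94172368-94172617; both plus strand), with metal response elements in capitals and, in Mt1, the receptor's element as the first capital run.
Mt1: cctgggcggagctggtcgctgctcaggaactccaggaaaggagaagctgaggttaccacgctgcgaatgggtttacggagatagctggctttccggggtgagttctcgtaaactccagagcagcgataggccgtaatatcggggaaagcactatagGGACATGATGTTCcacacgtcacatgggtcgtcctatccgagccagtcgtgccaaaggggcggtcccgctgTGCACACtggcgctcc
Mt2: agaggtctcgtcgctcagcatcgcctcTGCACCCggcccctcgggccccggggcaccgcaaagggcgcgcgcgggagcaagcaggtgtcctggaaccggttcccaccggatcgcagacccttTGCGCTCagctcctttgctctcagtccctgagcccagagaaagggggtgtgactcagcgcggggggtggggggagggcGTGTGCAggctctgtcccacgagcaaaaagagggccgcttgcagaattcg
Other start sites of these genes were not searched.

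Both metallothionein transcripts were higher in ES–LBs than in limb buds of the same limb type, and by unequal amounts in ES–FLBs. Across limb types, Mt2 in ES–FLBs (17.8 to 21.6 CPM) lay within the range of early HLBs (12.3 to 27.2 CPM). Mt1 stood at 35.2, 32.3 and 36.9 CPM in ES–FLBs and 12.5, 8.59 and 13.2 CPM in early FLBs. In ES–HLBs Mt1 was at 46.9, 56.1 and 58.6 CPM, against 20.9, 27.3 and 12.8 CPM in early HLBs. The ES–LB libraries were above those of the early limb buds throughout, and early HLB replicate 3 was lower than its 2 partners. Mt2 was measured at 20.1, 17.8 and 21.6 CPM in ES–FLBs and 9.46, 7.99 and 10.9 CPM in early FLBs. For the hindlimb Mt2 levels were 43.9, 57.0 and 52.0 CPM in ES–HLBs and 22.1, 27.2 and 12.3 CPM in early HLBs, again with replicate 3 lowest. The log2 difference of Mt1 was 1.59 ± 0.14 (limma adjusted p = 3.05e-07) in the forelimb and 1.44 ± 0.30 (adjusted p = 0.00791) in the hindlimb. For Mt2 it was 1.04 ± 0.12 (adjusted p = 6.84e-07) and 1.35 ± 0.33 (adjusted p = 0.0149). Without early HLB replicate 3 the hindlimb differences were 1.15 for Mt1 and 1.03 for Mt2. Against the E10.5 limb buds, Mt1 was higher by 1.85 ± 0.11 and 2.70 ± 0.12, and Mt2 by 1.15 ± 0.14 and 2.68 ± 0.12.

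Per kilobase of annotated exon, Mt1 was at 0.831 ± 0.025 (SD, n = 3) of the level of Mt2 in ES–FLBs and at 0.50 ± 0.034 in ES–HLBs. The 3 ES–FLB ratios, 0.808 to 0.858, lay above those of the other 23 libraries, whose group means ran from 0.396 in TB to 0.568 in early FLBs and whose highest single value was 0.653. This is a description chosen after the values were seen, and the absolute ratio depends on the exon lengths used (GENCODE), whereas its order over groups does not. The merged exons of Mt1 were 1 stretch of 1246 bases, the whole span of the gene, and those of Mt2 held 588 bases in 3 exons. In CPM, without division by length, Mt1 was above Mt2 in ES–FLBs (34.8 against 19.8). No run of 80 bases, the read length, was shared between the annotated transcripts of Mt1 and Mt2 or between any member and another gene. An antisense gene, Gm45774, overlaps 432 exon bases of Mt2, and since the strand setting of the counting is not given, reads of Mt2 and Gm45774 cannot be told apart.

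**Figure D3:**
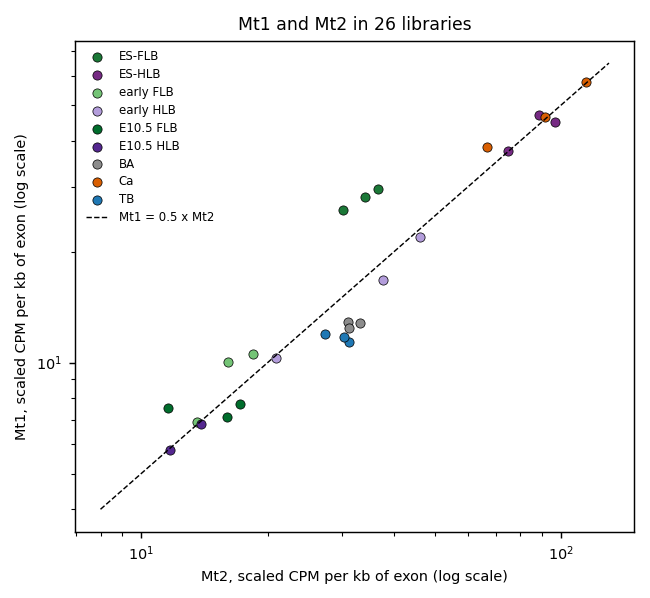
Level of Mt1 (y axis) against Mt2 (x axis), both in scaled CPM per kilobase of exon on log axes, for the 26 libraries, with a dashed line at a ratio of 0.5. The 3 ES–FLB libraries lie above the line, with ratios of 0.808 to 0.858.

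Between the 2 kinds of ES–LBs, 5 members were higher in ES–HLBs and 1 in ES–FLBs, against a background of 25.1% of 13132 genes called, 13.1% higher and 12% lower. Klf9 (log2 difference 1.37 ± 0.16, limma adjusted p = 3.93e-08) and Mt2 (1.34 ± 0.09, adjusted p = 1.42e-12) were over 2-fold higher in ES–HLBs, a size that 2.7% of all genes reached in that direction. Mt1 (0.62 ± 0.08), Nr3c1 (0.42 ± 0.09) and Fkbp5 (0.35 ± 0.07) were higher by less. Sgk1 was lower at the edge of the threshold (-0.24 ± 0.09, adjusted p = 0.0466), a call lost in 5 of the 6 fits that left out a library and in 3 other alternatives. Marker lists of other cell types moved with this comparison. The 10 endoderm and hepatic-type markers, a class of cells rich in metallothionein, summed to 107 to 125 CPM in ES–FLBs and 244 to 339 CPM in ES–HLBs, with 4 of 9 tested markers higher and 2 lower (Apob 198 against 29.7 CPM, Afp 13.0 against 47.2 CPM) and none at 0 in a whole group. The 6 pluripotency markers summed to 22.7 to 32.8 CPM and 79.96 to 111 CPM, all 6 higher and none at 0. The erythroid markers summed to 5.85 to 8.44 CPM and 90.2 to 170 CPM, with 5 of 5 tested higher. Of the surface epithelium markers 5 of 7 tested were higher and none lower (sums of 101 to 154 CPM and 201 to 217 CPM), of the endothelial markers 3 of 7 were higher (27.003 to 31.4 CPM and 41.1 to 46.9 CPM), and of the neural crest markers 1 of 3. Their part in the differences of Klf9, Mt1 and Mt2 was not tested.

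The other embryonic tissues set the ES–LB levels in a wider frame. Against BA, 6 members were higher in the mean of the 2 ES–LB groups and 2 lower (Tsc22d3 and Fkbp5), where 69.6% of 14438 genes were called (34.2% higher, 35.4% lower). Against TB, 6 were higher and 1 lower (Fkbp5), with a background of 76.2% (37.4% higher, 38.8% lower), and Tsc22d3 differed by -0.04 (95% interval -0.16 to 0.09). Heart was the exception, with 3 members higher in ES–LBs (Per1, Sgk1 and Klf9), 4 lower and 81% of genes called (41.8% higher, 39.2% lower). These contrasts take the mean of 2 groups that differ. Klf9 was at 11.7 CPM in ES–HLBs but 4.19 CPM in ES–FLBs, a mean below those of Ca (4.56 CPM) and TB (5.10 CPM). Mt2 in ES–FLBs (17.8 to 21.6 CPM) overlapped BA (18.3 to 19.5 CPM) and TB (16.1 to 18.4 CPM). In ES–HLBs, Mt1, Mt2 and Fkbp5 overlapped Ca. The log2 differences from heart were -1.09 ± 0.06 for Tsc22d3, -0.71 ± 0.19 for Mt2, -0.43 ± 0.17 for Mt1 and -0.17 ± 0.06 for Fkbp5, and -0.14 (95% interval -0.39 to 0.10) for Nr3c1. Under CPM as deposited, which moved the median of all genes in this comparison by 0.16 and the share of calls that were higher from 51.6% to 60.2%, Nr3c1 stood at 0.03 and Fkbp5 at 0.0046, and the calls of Fkbp5 and Mt1 were lost. Both calls were also lost without Ca replicate 2 (-0.08 and -0.28). That heart library held the most Mt1 and Mt2 (72.0 and 67.5 CPM) and also the most Afp, a marker of liver and yolk sac endoderm (1452 CPM). The other 2 did not keep this order. Replicate 1 held 57.9 CPM of Mt1, 53.9 CPM of Mt2 and 35.5 CPM of Afp. Replicate 3 held less Mt1 and Mt2 (47.9 and 39.2 CPM) but more Afp (229 CPM). The part of cells of liver and yolk sac endoderm in the metallothionein level of heart was not tested.

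The limb bud stages were compared within the embryo. From early to E10.5, 3 of 8 rose in FLBs, where 64.8% of 12767 genes were called (30.2% higher, 34.6% lower). These were Nr3c1 (1.02 ± 0.17, limma adjusted p = 5.02e-05), Klf9 (1.07 ± 0.20, adjusted p = 0.000175) and Tsc22d3 (0.59 ± 0.07, adjusted p = 8.59e-07). In HLBs Mt1 (-1.26 ± 0.30, adjusted p = 0.0256) and Mt2 (-1.33 ± 0.33, adjusted p = 0.0301) fell, where 28.9% of 12400 genes were called (12% higher, 16.9% lower), and both calls were lost when either of the 2 E10.5 HLB libraries was left out. The early FLBs and early HLBs, which by the legend of the study also differ in stage, differed in 2 members. These were Tsc22d3 (above) and Fkbp5, which was higher in HLBs by 0.22 ± 0.05 (adjusted p = 0.0171), where 20.3% of 12503 genes were called (9.35% higher, 11% lower). Mt1 was at 0.77 ± 0.31 (adjusted p = 0.157) and Mt2 at 1.02 ± 0.30 (adjusted p = 0.0694), and both were called without early HLB replicate 3 (1.06, adjusted p = 0.0158, and 1.34, adjusted p = 0.000525). Calls were also gained by Mt1 in E10.5 FLBs against early FLBs without early FLB replicate 2 (-0.44, adjusted p = 0.012) and by Sgk1 in E10.5 HLBs against early HLBs without early HLB replicate 1 (-0.52, adjusted p = 0.0182).

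The partners of the receptor did not move as a group. Of 16 listed genes (the related receptor, chaperones, hormone enzymes and cofactors) 14 were tested, and 5 were higher and 8 lower in ES–FLBs than in early FLBs (median -0.52), and 6 higher and 7 lower in ES–HLBs than in early HLBs (median -0.20). Over all genes tested, 41.1% were higher and 41% lower in ES–FLBs, and 39.6% and 38.9% in ES–HLBs. All 6 chaperones and co-chaperones listed were lower in both. Hsp90aa1, which encodes the inducible form of Hsp90, was at 647, 643 and 660 CPM in ES–FLBs against 3218, 3021 and 2857 CPM in early FLBs, a log2 difference of -2.22 ± 0.04, and the hindlimb difference was -1.68 ± 0.07. Fkbp4, the co-chaperone that competes with Fkbp5 for the receptor complex, was lower by log2 differences of -1.41 ± 0.04 and -1.18 ± 0.05, and Stip1, which links Hsp70 to Hsp90, by -1.23 ± 0.04 and -1.06 ± 0.06. On the higher side, Ncoa1, a coactivator of nuclear receptors, stood at 58.9 against 11.6 CPM in the forelimb and 66.9 against 7.38 CPM in the hindlimb (2.30 ± 0.08 and 3.09 ± 0.09).

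Of the hormone enzymes, Hsd11b2, which inactivates glucocorticoid, was detected in all groups and Hsd11b1, which regenerates it, hardly at all. Hsd11b2 was at 67.3, 68.7 and 62.1 CPM in ES–FLBs and 17.2, 20.02 and 17.6 CPM in early FLBs. In the hindlimb it was at 80.7, 70.2 and 76.0 CPM in ES–HLBs and 41.7, 31.5 and 27.7 CPM in early HLBs. The ES–LB libraries were above those of the early limb buds in both, with log2 differences of 1.83 ± 0.08 (limma adjusted p = 2.17e-12) and 1.17 ± 0.14 (adjusted p = 4.39e-05). The E10.5 limb buds held more than the early ones, 99.4 ± 6.0 CPM (SD, n = 3) in FLBs and 85.5 ± 7.5 CPM (SD, n = 2) in HLBs. Group means of Hsd11b1 did not pass 0.905 CPM, that of heart, and it was below the filter in the comparisons with limb buds, as was Nr3c2, the mineralocorticoid receptor gene, at 1.03 CPM in ES–FLBs and 0.950 CPM in ES–HLBs.

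**Figure D4:**
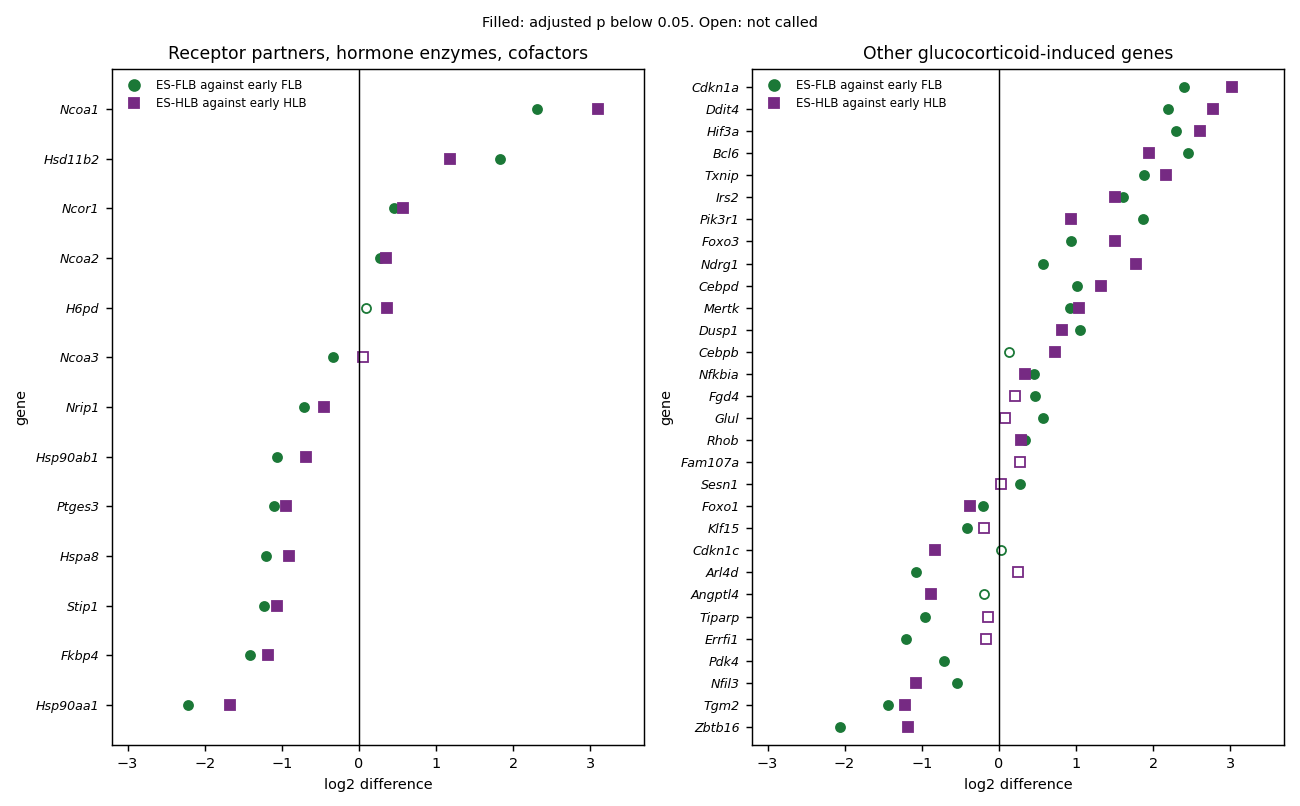
Log2 difference (x axis) of each gene (y axis) between ES–FLBs and early FLBs (circles) and between ES–HLBs and early HLBs (squares), for 13 of the 14 tested partners of the receptor on the left and other glucocorticoid-induced genes on the right, filled where the adjusted p was below 0.05. The chaperones lie to the left of 0 and Ncoa1 and Hsd11b2 to the right, while the induced genes spread to both sides.

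A longer list of 34 other genes that glucocorticoids can induce held genes of both directions. In ES–FLBs 17 were higher and 9 lower of 29 tested, where 41.1% of all genes were higher and 41% lower. In ES–HLBs 15 were higher and 6 lower of 29, where 39.6% of all genes were higher and 38.9% lower. The median log2 difference of the listed genes was 0.45 in ES–FLBs (beside 0.01 over all genes) and 0.29 in ES–HLBs. Among the highest in their rise were Bcl6, a repressor of lymphocyte genes (2.45 ± 0.20 in ES–FLBs and 1.94 ± 0.23 in ES–HLBs), Cdkn1a, the cell cycle inhibitor p21 (2.40 ± 0.10 and 3.03 ± 0.11), Hif3a, of the hypoxia factor family (2.29 ± 0.14 and 2.61 ± 0.10), and Ddit4, an inhibitor of mTOR signalling (2.2 ± 0.16 and 2.78 ± 0.15). Ddit4 stood at 133 to 177 CPM in ES–FLBs and 28.4 to 39.4 CPM in early FLBs. Lower were Zbtb16, a zinc finger factor with a role in limb patterning (-2.06 ± 0.13 and -1.18 ± 0.09), and Tgm2, a crosslinking enzyme (-1.43 ± 0.15 and -1.22 ± 0.17). Errfi1, which restrains EGF receptor signalling, was lower in ES–FLBs (-1.21 ± 0.07), and Nfil3 was lower in ES–HLBs (-1.08 ± 0.09). Many of these genes also answer to stress, hypoxia or growth factors. Of 13 inflammatory and matrix genes that glucocorticoids lower, 9 were below the filter in both comparisons. Among the 4 tested, Icam1 was lower (-1.21 ± 0.17 and -1.58 ± 0.19), and Mmp9 (1.76 ± 0.15 and 3.64 ± 0.16), Ptgs2 (2.00 ± 0.24 and 2.25 ± 0.24) and Vcam1 (2.02 ± 0.08 and 0.78 ± 0.16) were higher. Vcam1 turned direction against the E10.5 limb buds, where it was lower in ES–FLBs (-0.58 ± 0.06) and ES–HLBs (-0.57 ± 0.07).

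Immediate early genes are those that cells switch on within minutes of a stimulus. They were higher in ES–LBs for 13 of 15 in the forelimb (41.1% of all genes) and 14 of 15 in the hindlimb (39.6%). Their summed level was 1599 to 2233 CPM in ES–FLBs and 1301 to 1554 CPM in ES–HLBs, against 202 to 232 CPM in the early limb buds, and none was at 0 in a whole group. Fos showed the largest difference (6.70 ± 0.16 and 6.52 ± 0.17), followed by Egr1 (5.67 ± 0.19 and 6.33 ± 0.15). Atf3 was lower in both (-1.07 ± 0.17 and -1.12 ± 0.19). Per1, Sgk1 and Klf9 are themselves known to respond to such stimuli, and the part of this in their levels was not tested. Heart, at 382 to 528 CPM, had the highest summed level of the embryonic tissues. Per1 in heart (24.1 CPM) was in the range of the other embryonic groups. Sgk1 (17.7 CPM) and Klf9 (4.56 CPM) in heart were above the group means of the embryonic limb buds and below that of TB.

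Relatives of the members did not share one direction. Of 14 paralogs 10 were tested, with 5 higher and 3 lower in ES–FLBs and 6 higher and 2 lower in ES–HLBs. For these and for the clock genes below, the shares of all genes were 41.1% higher and 41% lower in ES–FLBs. In ES–HLBs the shares were 39.6% and 38.9%. Klf4, a relative of Klf9 and a pluripotency factor, rose most (5.15 ± 0.12 and 3.73 ± 0.13), and Tsc22d1 was higher by 1.01 ± 0.04 and 0.97 ± 0.04 where Tsc22d3 was near level. Sgk3 was lower (-0.73 ± 0.14 and -1.17 ± 0.12), unlike Sgk1. Per2 was at 0.26 ± 0.15 and 0.24 ± 0.18 and was called in neither, and Per3 at 0.24 ± 0.13 and 0.65 ± 0.12 and was called in the hindlimb. Mt3 and Mt4 were below the filter. Of 17 listed clock gene symbols 15 were in the table, and 13 were tested in the forelimb, with 6 higher and 3 lower, and 14 in the hindlimb, with 8 higher and 2 lower. The output factors Hlf (3.25 ± 0.18 and 1.82 ± 0.26), Dbp (1.55 ± 0.17 and 1.32 ± 0.19) and Tef (1.13 ± 0.09 and 1.37 ± 0.10) and the repressor Bhlhe40 (1.09 ± 0.20 and 1.90 ± 0.15) were higher, and Nfil3 (-0.54 ± 0.08 and -1.08 ± 0.09) and Cry1 (-0.40 ± 0.09 and -0.56 ± 0.07) lower.

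Genes of metal handling did not follow Mt1 and Mt2. Of 12 tested, 2 were higher and 6 lower in ES–FLBs (median -0.25), and 3 higher and 6 lower in ES–HLBs (median -0.29). Beside these counts, 41.1% of all genes were higher and 41% lower in ES–FLBs, and 39.6% and 38.9% in ES–HLBs. Mtf1, the zinc sensor that drives metallothionein genes, was at -0.02 ± 0.09 and 0.12 ± 0.10, and its target Slc30a1, a zinc exporter, at -0.03 ± 0.09 and 0.14 ± 0.11, all 4 without a call. Higher were the iron exporter gene Slc40a1 (1.45 ± 0.17 and 0.77 ± 0.13) and the heme oxygenase gene Hmox1 (1.01 ± 0.08 and 1.09 ± 0.09). Lower were Gclm, of glutathione synthesis (-1.35 ± 0.12 and -1.23 ± 0.11), the zinc importer gene Slc39a10 (-1.02 ± 0.05 and -1.09 ± 0.06) and the ferritin gene Fth1 (-0.89 ± 0.05 and -0.56 ± 0.06). Beside the metallothioneins, the endoderm and hepatic-type markers summed to 107 to 125 CPM in ES–FLBs and 6.64 to 16.2 CPM in early FLBs, and to 244 to 339 CPM in ES–HLBs and 10.02 to 10.4 CPM in early HLBs, where Alb, Apoa2 and Foxa2 were at 0 in every library. The part of such cells in the Mt1 and Mt2 levels was not tested.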

How the data were processed

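RNA-seq data of 27 libraries in 9 groups of 3 were used, grouped by the sample labels. The authors mapped stranded single-end reads to mm10 with HISAT2 (2.0.4 in the submitters' processing notes), counted them per gene with Cuffdiff and deposited CPM, which sum to 1000000 per library. The strand setting of the counting is not given in the sources used here. Depth was read from the spacing of low CPM values, since 92.3% to 92.6% of positive values in the early limb buds and 98.6% to 98.9% in the others were whole multiples of 1 step (within 0.02). Floors of 3 reads cover counting error only.

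CPM of 26 libraries were scaled by an unweighted trimmed mean of log ratios (trimming 30% of ratios and 5% of intensities). The filter kept genes reaching 1 CPM in 3 or more of the libraries compared. Log2(CPM + 0.5) was fitted with limma 3.58.1 (trend, robust; R 4.3.3), with Benjamini-Hochberg adjustment over all genes tested. Each fit of 2 groups held only those groups, the test between limb types held 12 libraries, and the fit for TB, Ca and BA held 26. Called means an adjusted p below 0.05, and ± after a log2 difference is the SE. Tests were checked on simulated data. Levels, promoters and figures were made with Python 3.11.15, pandas 2.3.3, numpy 2.4.6 and matplotlib 3.10.9. Gene positions and exons are from GENCODE and promoter windows from RefSeq, both GRCm38. The members and gene lists were chosen with earlier results of these data known. Named were the 8 members, in each list up to 3 called genes with the largest change in each direction in the comparisons with early limb buds, the 3 genes most like each member, and others chosen after their values were seen (Per2, Per3, Mtf1, Slc30a1, Hsd11b1, Nr3c2). Some genes that the rule names are not reported here. Alternatives were other scalings, filters, pseudocounts, limma settings, models, thresholds, the replicate block, each replicate left out, and E10.5 HLB replicate 2 included.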

Additional observations from a re-analysis of the deposited data

Results flagged for a closer look

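Of the 8 genes, 2 differed between limb types in their contrast of ES–LBs with early limb buds, by limma's test of the difference over 12 libraries. For Tsc22d3 the difference (hindlimb minus forelimb, log2) was -0.51 ± 0.10 (adjusted p = 0.00108), from 0.21 in the forelimb and -0.30 in the hindlimb. For Klf9 it was 1.23 ± 0.23 (adjusted p = 0.000504), from 1.15 and 2.38. Across all genes 22.7% of 13615 passed this test. Both calls held in all 12 fits that left out a library. Tsc22d3 was higher in early HLBs than in early FLBs by 0.35 ± 0.07, while the 2 ES–LB groups did not differ past the threshold (-0.16 ± 0.08). By the legend of the study the early FLBs and early HLBs also differ in stage. Limb type and stage of the early limb buds cannot be told apart in this test.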

How the results depend on the processing

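The directions of all 8 genes against the early and E10.5 limb buds held in every alternative run, including each library left out, and at the 0.05 threshold the calls other than those of Tsc22d3 held too. Of 664 values of single members under other settings 642 kept direction and side of the threshold, and of 680 with a library left out 647 did. At an adjusted p below 0.001 the members called fell to 5 for ES–HLB against early HLB, 3 for ES–LB against Ca, 1 for the difference between limb types, and 0 for E10.5 HLB against early HLB and for early HLB against early FLB. All genes called at that threshold were 1439 for ES–HLB against ES–FLB, 5303 for E10.5 FLB against early FLB, 571 for E10.5 HLB against early HLB, 386 for early HLB against early FLB and 924 for the difference between limb types. Without trend and robust estimation, E10.5 HLB against early HLB gave 0 members and 2283 genes and early HLB against early FLB 1 member, and 1 model of 26 libraries gave 4 members in each. With a library left out, E10.5 HLB against early HLB gave 0 to 3 members and 1692 to 4187 genes (fits with 1 E10.5 HLB library assume that it varies like the early HLBs), and early HLB against early FLB 1 to 3 members and 1376 to 2284 genes.

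CPM as deposited reversed small values, namely Nr3c1 (0.0263) and Fkbp5 (0.00455) against Ca, Fkbp5 (0.15, adjusted p = 0.0117), Per1 (0.0228), Sgk1 (0.0148) and Mt2 (0.0505) in E10.5 FLB against early FLB, Fkbp5 (0.0208) in E10.5 HLB against early HLB and Per1 (0.0141) in early HLB against early FLB. That scaling moved the share of calls that were higher from 46.6% to 66% in E10.5 FLB against early FLB, from 41.5% to 56.2% in E10.5 HLB against early HLB, from 46% to 61.8% in early HLB against early FLB and from 56.2% to 44.5% for the difference between limb types, and the median of all genes by 0.10 in ES–HLB against E10.5 HLB and 0.16 in E10.5 FLB against early FLB. Leaving out a library reversed the sign of values without a call, within these ranges: Tsc22d3 against TB -0.0798 to 0.00887, Mt2 in E10.5 FLB against early FLB -0.22 to 0.0558, Klf9 -0.15 to 0.47 and Fkbp5 -0.11 to 0.0353 in E10.5 HLB against early HLB, Nr3c1 -0.0625 to 0.15 and Per1 -0.11 to 0.0209 in early HLB against early FLB, and Mt1 -0.44 to 0.0919, Mt2 -0.00481 to 0.55 and Sgk1 -0.23 to 0.00139 for the difference between limb types. Klf9 against TB lost its call without TB replicate 1 (0.38, adjusted p = 0.0652), and Fkbp5 in early HLB against early FLB without early HLB replicate 3 or early FLB replicate 3 (0.18 and 0.18). The cause was not tested. The correlation of same-numbered deviations was -0.09 to 0.10, and 0.04 to 0.07 between ES–HLBs and ES–FLBs. Pairs with unlike numbers were not set beside these, so that they cannot decide whether replicate numbers pair the libraries. The replicate block changed no call of a member. With it 10726 genes were called for ES–FLB and 10247 for ES–HLB against the early limb buds (10766 and 10356 without it). For ES–HLB against ES–FLB 3893 were called with it and 3294 without. The edgeR test on recovered reads was not run, because the deposited values hold fractions of a read.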

Other observations

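Patterns over the 9 group means (log2 scale, 14437 other genes compared) are descriptions, in which the points share libraries and the ES–LB groups stand apart. Most like Nr3c1 were Tapbp, Slc6a9 and Gpr162 (r = 0.983, 0.982 and 0.980). Among the nearest to Tsc22d3 were Mmgt2 and Mff (r = 0.973 and 0.967), and Fkbp5 was nearest to Trib1, Prom2 and Bub1b (r = 0.999, 0.990 and 0.988). Nearest to Per1 were Ccl25, Srebf1 and Gm14124 (r = 0.991, 0.983 and 0.983). Sgk1 was nearest to Tacr1, Sulf1 and Zeb2 (r = 0.974, 0.973 and 0.969), and Klf9 to Slc38a9, Dennd4a and Dgke (r = 0.955, 0.953 and 0.950). Mt1 was nearest to 2900053A13Rik, Tnfsf12 and Rhox5 (r = 0.982, 0.980 and 0.979). Only Mt2 had another member among its nearest 3, Mt1 (r = 0.955), followed by Aox1 and Mast4 (r = 0.953 and 0.936). Fkbp5 ran against the receptor gene over the groups (r = -0.89), and Tsc22d3 followed neither Nr3c1 (r = 0.22) nor Fkbp5 (r = -0.10).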
